A study of Mus musculus with 10 samples.

Results

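Muscle-marker cells of the E11.5 mouse mandible were chosen by a rule on 9 muscle genes. The genes were *Tnnt1*, *Ttn*, *Actc1*, *Des* and *Myl1*, which encode parts of the contractile apparatus and its cytoskeleton, *Mrln*, which encodes a small membrane protein that inhibits the calcium pump, and *Myod1*, *Myf5* and *Msc*, which encode basic helix-loop-helix (bHLH) transcription factors. A cell was taken if at least 3 of the 9 had a UMI (unique molecular identifier, 1 captured RNA molecule) and fewer than 3 of 6 epithelial genes did (*Epcam*, *Krt5*, *Krt14*, *Trp63*, *Dsp* and *Cdh1*). This gave 98 of the 6573 E11.5 cells that passed the filter on cells, or 1.49% (exact binomial 95% interval 1.21 to 1.81). Because detection of the 9 genes chose the cells, the levels of these genes and every contrast of the 98 cells with other cells are descriptions without a test.

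The cells came from wild type NMRI embryos without treatment, as droplet-based single-cell RNA libraries. The E11.5 libraries hold cells of the whole mandible, whereas those of E14.5 and E16.5 hold cells of the incisor bud alone. The labels name the tissue of every stage as developing incisor and list 4, 4 and 2 samples, but the deposited barcodes carry no sample, so each stage was 1 sample here and differences between stages cannot be told apart from differences in the dissected tissue. The intervals given are at the 95% level and cover counting error only, exact Poisson for levels and exact binomial (Clopper-Pearson) for shares of cells. Where a count was 0, the limit given with it is instead the level or share that 3 counts in the group would make. Levels are CPM, counts per 1e6 UMIs after adding up all cells of a group, and since the libraries read 3′ ends, they are not scaled to gene length.

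Muscles of the jaw form from cranial mesoderm that fills the core of the branchial arches, whereas the jaw skeleton and most of the connective tissue around it come from neural crest. In the arch core, the transcription factors Tbx1, Isl1, Lhx2, Msc and Tcf21 act upstream of the myogenic bHLH factors Myf5 and Myod1, and Myog then drives differentiation, in which sarcomere genes are switched on and cells leave the cell cycle. In the trunk and limb the paired box factor Pax3 has the upstream role instead.

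The 98 muscle-marker cells had a median of 7604.5 UMIs (lowest 1494, highest 38850) and 2568 genes, against 5636 UMIs and 2128 genes in the 6475 other cells. The median mitochondrial share was 3.89% and 3.92%. None of the 98 cells had 3 epithelial genes, only 2 had a UMI of any of the 6 (*Epcam* in both), and no E11.5 cell met the muscle threshold and the epithelial threshold together. At E14.5, 0 of 6091 cells met the rule, which allows a share of up to 0.0493% (3 cells of the 6091), and at E16.5 1 of 4511 cells did. That cell held 16846 UMIs, with 6 UMIs of *Myod1*, 1 of *Myf5*, 5 of *Actc1* and 40 of *Acta2*. The E11.5 matrix shared 13 barcode sequences with E14.5 and 17 with E16.5.

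Of the 6573 cells, 6117 had none of the 9 genes, 327 had 1 and 23 had 2. Just inside the threshold, 30 cells had 3 of the genes, and 27, 20, 13, 7 and 1 cells had 4, 5, 6, 7 and 8. *Lhx2* and *Acta2*, which the rule did not use, were more often detected in cells with 2 to 7 rule genes than with 0 or 1. A UMI of *Lhx2*, a LIM homeobox factor of the arch core, was found in 0.360% of the cells with none of the 9 genes, 1.83% with 1, 21.7% with 2 and 53.3% with 3. For *Acta2*, the alpha smooth muscle actin that immature striated muscle also makes, these shares were 0.294%, 0.612%, 34.8% and 50%. Above the threshold *Lhx2* did not keep rising, at 44.4%, 65%, 53.8% and 42.9% with 4, 5, 6 and 7 rule genes, while *Acta2* was at 59.3%, 75%, 100% and 85.7%. The single cell with 8 had no UMI of either gene. The 23 cells just outside the threshold thus carried both genes more often than the cells with 0 or 1 rule gene. Their median depth was 5951 UMIs, against 5551 with none of the 9 genes, 7715 with 1 and 5096.5 with 3. When each cell was thinned to 2000 UMIs, 37 of 5824 cells met the rule (0.635%), all 37 of them among the 98, so the number of cells found depended on depth.

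**Figure D1:**
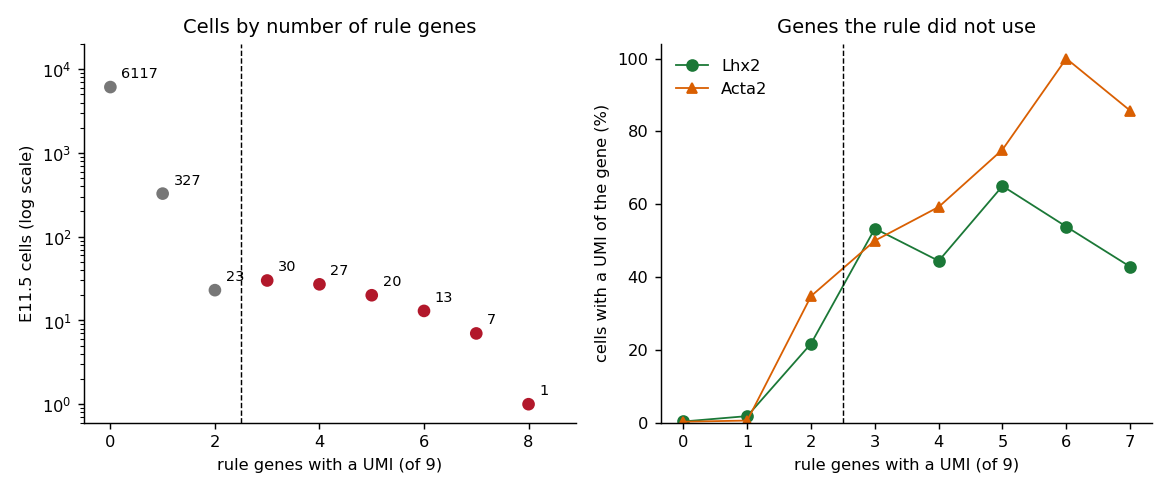
Left, number of E11.5 cells (log scale) by how many of the 9 rule genes had a UMI, with cells taken by the rule in red right of the dashed threshold. Right, share of cells (%) with a UMI of *Lhx2* or *Acta2*, which the rule did not use, in cells with 0 to 7 rule genes; the single cell with 8 is not drawn, and the shares are near 0 at 0 and 1 rule genes and at 21.7% or more from 2 upwards.

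Clustering of all E11.5 cells with the 9 genes left out put 91 of the 98 cells (92.9%) into a single cluster of 135 cells. Its 10 leading genes included *Acta2*, *Pdgfa*, *Igfbp5*, *Lhx2* and *Parm1* beside 4 of the rule genes. The 44 other cells of the cluster had a median of 3801.5 UMIs, 23 of them held 1 or 2 rule genes, and 20.5% had an *Lhx2* UMI. Of the 7 muscle-marker cells outside the cluster, 6 held 3 or more markers of mesenchyme, and the median depth of the 7 was 16893 UMIs.

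Among the rule genes, *Tnnt1*, the slow skeletal troponin T, was the most widely detected, at 629 CPM (interval 578 to 684) and in 97 of the 98 cells, against 4.16 CPM in the other cells. *Ttn*, the giant sarcomeric spring protein, was at 325 CPM and in 68.4% of the cells, and *Mrln* at 156 CPM and in 71.4%. *Actc1*, the cardiac actin that fetal skeletal muscle also uses, reached 145 CPM but was found in 27 cells, and the 10 cells with most of it held 85.9% of its UMIs. The 10 highest cells held 24.1% of the *Tnnt1* UMIs. *Tnnt1* was thus spread over nearly all cells, and *Actc1* was concentrated in a few.

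Of the factors that start the muscle program, *Myf5* was at 61.2 CPM in 42 of the 98 cells, *Myod1* at 57.8 CPM in 32 and *Msc* at 49.9 CPM in 33. The rule used these 3. Both *Myf5* and *Myod1* were found in 14 cells, *Myf5* without *Myod1* in 28 and *Myod1* without *Myf5* in 18. *Tcf21*, a bHLH factor of the arch core that the rule did not use, was at 26.1 CPM (16.52 to 39.1) in 20 of the cells and at 0.129 CPM in the others. *Myog* was at 34.0 CPM (22.9 to 48.5) in only 8 cells, which held 85.7% of its E11.5 UMIs. *Myf6*, a factor of later muscle differentiation, had 1 UMI in 1 cell. At this depth, 62 of the 98 cells had a UMI of *Myf5*, *Myod1*, *Myog* or *Myf6*, and 36 had none.

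Upstream head muscle regulators, none of them used by the rule, differed in how far they stood from the other cells. *Lhx2* (ENSMUSG00000000247; GRCm38 chromosome 2, 38339281 to 38369733) was at 143 CPM (119 to 170) against 0.772 in the other cells. *Isl1*, a LIM homeobox factor shared by arch mesoderm and the heart field, was at 48.7 CPM (35.3 to 65.6) against 2.81, and *Tbx1*, a T-box factor of the arches, at 40.8 CPM (28.6 to 56.5) against 1.69. *Isl1* was higher, at 85.4 CPM, in the 8 cells with at least 3 of the 6 epithelial genes. Of its E11.5 UMIs, 24.7% were in the 98 cells. The other 5 regulators were less than 2 fold from the other cells. On the log2 ratio of CPM with 10 CPM added to both groups, *Eya4* was 0.67 (0.31 to 1.01), *Six4* 0.26 (-0.11 to 0.63), *Eya1* 0.08 (-0.30 to 0.44), *Mef2c* 0.27 (-0.11 to 0.65) and *Ebf3* 0.05 (-0.29 to 0.37). The other cells, most of them with mesenchyme markers, expressed *Ebf3* at 66.6 CPM. *Mef2c* depended on the cells compared with. It was at 47.6 CPM in the 98 cells, 17.6 in mesenchyme-marker cells and 437, 737 and 374 in endothelium-, immune- and glia-marker cells, and its log2 ratio over mesenchyme-marker cells was 1.06 (0.67 to 1.43). Thus 3 of these 8 regulators were at least 2 fold higher than in all other cells, against 2.01% of all genes compared. The median log2 ratio of the 8 was 0.47, and that of all 7365 genes compared was -0.00096.

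Of the 98 muscle-marker cells, 38 had 1 of *Tbx1*, *Lhx2* and *Isl1*, 26 had 2, 3 had all and 31 had none. Of the 6475 other cells, 6304 had none. A UMI of *Lhx2* was in 52.0% and one of *Acta2* in 66.3% of the muscle-marker cells (median depth 7604.5 UMIs). Neither gene had a UMI in the 132 erythroid-marker cells, a type that should lack both (median depth 5699.5 UMIs), and 3 of those cells would be a share of 2.27%. *Lhx2* was in 15 of the 21 cells with *Isl1* and in 36 of the 77 without it. Median depth was 7902 UMIs with *Isl1* and 7454 without.

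The 4 genes listed under trunk and limb muscle differed from each other, and not all of them are confined to those muscles. *Pax7*, known from muscle stem cells and not a marker of trunk and limb alone, was at 48.7 CPM (35.3 to 65.6) in 28 of the 98 cells and at 0.107 in the others. *Pax3*, the trunk and limb regulator, was at 28.3 CPM (log2 ratio 0.04, -0.40 to 0.48) and did not differ from the other cells beyond counting error. The mesenchyme-marker cells expressed *Pax3* at 30.5 CPM. Over the 98 cells it was uneven, at 74.5 CPM in the 27 cells with an *Actc1* UMI, of which 40.7% had it. In the 71 cells without *Actc1*, *Pax7* was the highest of the 4 genes, at 51.5 CPM. The source of this unevenness was not tested. *Lbx1*, a factor of migrating limb muscle precursors, had 5 UMIs in the 98 cells and none in the 4966 mesenchyme-marker cells. *Met*, the receptor those precursors need, had 7 UMIs in the 98 cells. Heart markers were mostly at 0, with no UMI of *Nppa*, *Myh6*, *Myl7* or *Myl2* in the 98 cells, which allows up to 3.40 CPM each. *Nkx2-5*, a heart field factor also known from arch mesoderm, was at 20.4 CPM in 10 cells and at 0.129 in the others, and no cell held 3 cardiac markers.

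**Figure D2:**
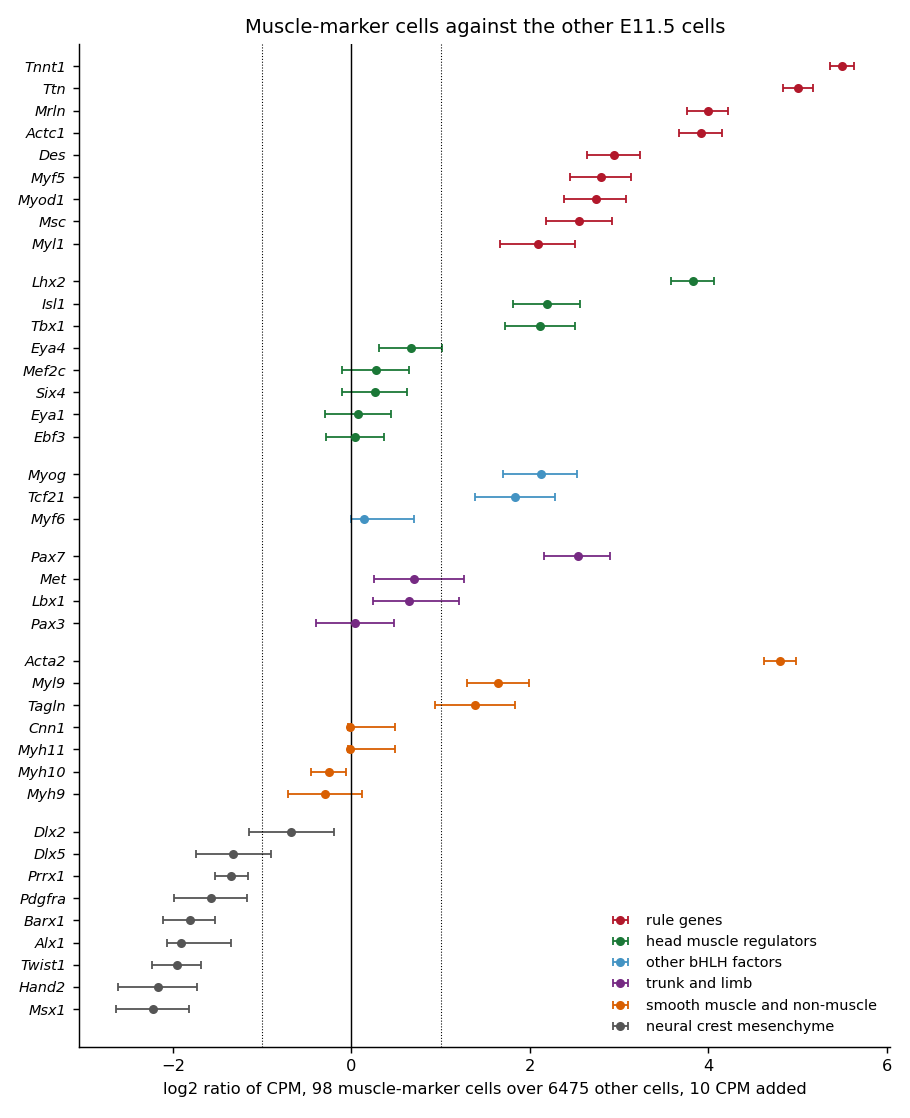
Log2 ratio of CPM in the 98 muscle-marker cells over the 6475 other E11.5 cells, with 10 CPM added, for genes grouped by role. Bars are 95% counting intervals and dotted lines mark 2 fold; *Lhx2*, *Isl1*, *Tbx1*, *Pax7* and *Acta2* lie right of the upper line and 8 of the 9 neural crest genes left of the lower one.

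Over all genes, 148 of 7365 compared (2.01%) were at least 2 fold higher in the 98 cells and 101 (1.37%) at least 2 fold lower. Genes were compared if at least 10% of the cells of either group had a UMI and the counts came to 50 or more. Of all 20138 genes with a UMI at E11.5, without this filter, 180 (0.894%) were at least 2 fold higher and 117 (0.581%) at least 2 fold lower. Where a count of listed genes is set against 1 of these unfiltered shares, it is given without the filter. All are descriptions, since the same cells were chosen by the rule. The 10 largest log2 ratios belonged to *Tnnt1* (5.50), *Ttn* (5.01), *Acta2* (4.81), *Mrln* (3.996), *Actc1* (3.92), *Lhx2* (3.83), *Igfbp5* (3.62), *Parm1* (3.49), *Celf2* (3.39) and *Pdgfa* (3.38). *Igfbp5*, a binding protein for insulin-like growth factors, was at 416 CPM in 86.7% of the cells, and *Pdgfa*, a ligand for the receptor Pdgfra, at 148 CPM in 62.2%. Both were higher still in the 8 epithelial-marker cells, at 795 and 624 CPM. Other transcription factors, chosen after their values were seen, were *Ebf1* at 453 CPM, *Barx2* at 82.7 CPM, *Foxl2* at 68.0 CPM and *Prox1* at 39.7 CPM. In the other cells *Ebf1* was at 48.3 CPM and the remaining 3 were below 1 CPM.

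Genes of neural crest mesenchyme were lower. Of 9 listed, 8 were at least 2 fold lower, against 1.37% of all genes compared, and the summed level was 606 CPM in the 98 cells against 2104 in the others, a log2 ratio of -1.78 (-1.90 to -1.66). *Msx1*, a homeobox gene of the distal arch, was at 35.1 against 201 CPM, *Hand2*, which patterns the mandibular arch, at 27.2 against 158, and *Twist1*, a bHLH factor of crest mesenchyme, at 105.4 against 437. *Prrx1* stayed the highest of the 9 in the muscle-marker cells, at 258 CPM against 671. The lowest 10 ratios over all genes belonged to *Hand2os1* (-2.55), *Ahnak* (-2.43), *Msx1* (-2.22), *Mpped2* (-2.18), *Hand2* (-2.17), *Cited1* (-2.13), *Twist1* (-1.95), *Gsc* (-1.94), *Ptn* (-1.94) and *Col9a1* (-1.91), of which *Gsc* is a homeobox gene of the arches and *Col9a1* encodes a cartilage collagen. The mesenchyme genes were unevenly spread over the 98 cells. In 23 cells 3 or more were detected, with 1299 CPM in sum and a median depth of 15032 UMIs, and in the other 75 cells the sum was 120 CPM at a median of 6251 UMIs. Of the 17 muscle-marker cells among the 5% highest doublet scores, 11 were among these 23, and the part of doublets in the mesenchyme signal was not tested. Erythroid markers, 3 or more, were found in 2 of the 98 cells, and no cell held 3 markers of endothelium, immune cells, glia, neurons or pericytes. *Erbb3* and *Tubb3*, listed as glial and neuronal genes, were at 14.7 and 38.5 CPM, above the other cells at 0.944 and 8.84, while *Sox10* and *Elavl3* had no UMI in the 98 cells.

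Sarcomere genes were detected as a part of the set. Of 25 listed genes, 11 were at least 2 fold higher in the 98 cells without the filter on counts (0.894% over all genes), and 5 of those 11 were rule genes. With the filter 7 of the 25 were compared, all 7 at least 2 fold higher, and 3 of the 7 were not rule genes. Without the rule genes the summed level was 1556 CPM against 279, a log2 ratio of 2.44 (2.36 to 2.52), most of it from *Tpm1* (1032 against 232 CPM) and *Tpm2* (304 against 38.2), tropomyosins that line the thin filament. *Tpm1* was not particular to the muscle-marker cells, at 992 CPM in epithelial-marker cells and 435 CPM in glia-marker cells. *Neb*, the nebulin ruler of the thin filament, was at 96.3 CPM in 42.9% of the cells. Other sarcomere genes were rare: *Mylpf*, the fast regulatory myosin light chain, was found in 5 cells, *Myh3*, the embryonic myosin heavy chain, in 2 and *Acta1*, the adult skeletal actin, in 1. A single cell with *Myog*, described below, held 34 UMIs of *Mylpf* and 9 of *Myh3*, so the count of 11 without the filter rests in part on 1 cell. *Myh8*, *Mybpc1* and *Mybph* had no UMI in the 98 cells, which allows up to 3.40 CPM.

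Genes of the synapse and of calcium handling showed a similar division. *Rapsn*, which clusters acetylcholine receptors, was at 32.9 CPM (21.8 to 47.7) in 24 cells and *Ryr1*, the calcium release channel, at 21.5 CPM in 18 cells, against 0.257 and 2.96 in the other cells. Beside *Mrln*, *Jph1* and *Atp2a1* were also at least 2 fold higher, which made 5 of 17 listed genes, *Mrln* being a rule gene, against 0.894% of all genes. *Sln*, *Casq2*, *Cacna1s* and *Cacng1* had no UMI in the 98 cells. Of 11 genes of adhesion and fusion, *Cdh15* (M-cadherin, 35.1 CPM in 26 cells), *Jam2* (24.9 CPM) and *Ncam1* (70.3 CPM) were at least 2 fold higher, as was *Mymx*, a micropeptide of myoblast fusion, with 9 UMIs in 4 cells, which made 4 of 11 against the same 0.894%. *Mymk*, the other fusion protein, had 3 UMIs in 2 cells.

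Upstream windows of the genes above were searched for motifs that muscle factors are known to bind, and 4 are printed because their RefSeq start lies close to the GENCODE gene start. Each is the 250 bases before the RefSeq start on GRCm38.p6, 5′ to 3′ on the gene's strand, with motif matches in capitals. The motifs searched on both strands were the E-box CANNTG, which bHLH dimers bind, the MEF2 site and the CArG box, and no printed match overlaps another. The windows are *Ttn* (a MEF2 site and an E-box; chr2:76982548-76982797, minus strand), *Mrln* (1 E-box; chr10:70204414-70204663, plus strand), *Myog* (2 E-boxes; chr1:134289754-134290003, plus strand) and *Lhx2* (none of the 3 motifs; chr2:38339031-38339280, plus strand).
Ttn: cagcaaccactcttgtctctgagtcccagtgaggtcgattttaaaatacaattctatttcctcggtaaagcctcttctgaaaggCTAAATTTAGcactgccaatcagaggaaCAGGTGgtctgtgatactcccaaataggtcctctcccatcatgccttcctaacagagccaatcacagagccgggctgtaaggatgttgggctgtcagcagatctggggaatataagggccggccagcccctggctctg
Mrln: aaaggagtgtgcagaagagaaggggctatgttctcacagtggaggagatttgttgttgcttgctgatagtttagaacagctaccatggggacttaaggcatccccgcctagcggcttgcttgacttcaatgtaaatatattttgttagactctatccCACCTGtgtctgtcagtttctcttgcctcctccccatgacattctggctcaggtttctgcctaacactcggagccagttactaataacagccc
Myog: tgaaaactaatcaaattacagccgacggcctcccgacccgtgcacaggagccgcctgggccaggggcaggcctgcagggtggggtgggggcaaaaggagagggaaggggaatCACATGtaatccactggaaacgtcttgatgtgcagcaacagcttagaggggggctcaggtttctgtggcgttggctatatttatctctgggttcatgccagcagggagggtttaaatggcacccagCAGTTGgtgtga
Lhx2: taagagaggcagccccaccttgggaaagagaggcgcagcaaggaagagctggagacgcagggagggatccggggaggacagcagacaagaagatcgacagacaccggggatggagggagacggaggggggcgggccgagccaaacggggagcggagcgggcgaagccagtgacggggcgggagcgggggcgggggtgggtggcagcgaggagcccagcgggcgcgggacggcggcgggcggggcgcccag
An E-box was in 88% of 25 windows of 22 sarcomere genes and in 66.2% of all 32851 windows. Its CAGCTG form was in 40.0% and 13.0%, the MEF2 site in 8.0% and 2.92%, and the CArG box in 8.0% and 1.47%. In the same order of motifs, shares were 81.8%, 45.5%, 9.09% and 0% in 11 windows of the synapse and calcium genes. In 9 windows of cell cycle genes they were 55.6%, 11.1%, 11.1% and 0%, so the MEF2 site was not particular to the sarcomere genes. *Tnnt1* held an E-box 158 bases before its RefSeq start, *Actc1* a CArG box at 47 bases, and *Acta2* 3 E-boxes at 228, 220 and 182 bases. A match is a sequence, not a bound site, and the shares rest on few windows. Variants of a motif outside the pattern searched are neither marked nor counted.

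*Acta2* (ENSMUSG00000035783; chromosome 19, 34241090 to 34255590) was also read by the study in dental epithelium, so its place among the E11.5 cells was followed. It had 304 UMIs at E11.5, and 85.9% of them (81.4 to 89.6) were in the 98 muscle-marker cells. It was detected in 95 cells, of which 65 were muscle-marker cells, 2 were epithelial-marker cells (at least 3 of the 6 epithelial genes) and 28 were neither. Its level was 296 CPM (261 to 334) in the 98 cells, 32.9 in the 8 epithelial-marker cells, whose median depth was 18630 UMIs, and 0.922 in all 6475 cells outside the 98, the 8 included. The log2 ratio over epithelial-marker cells was 2.83 (1.80 to 3.90). The study's evidence on *Acta2* in epithelium from E11.5 also included immunostaining and lineage tracing, which these RNA counts do not measure.

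**Figure D3:**
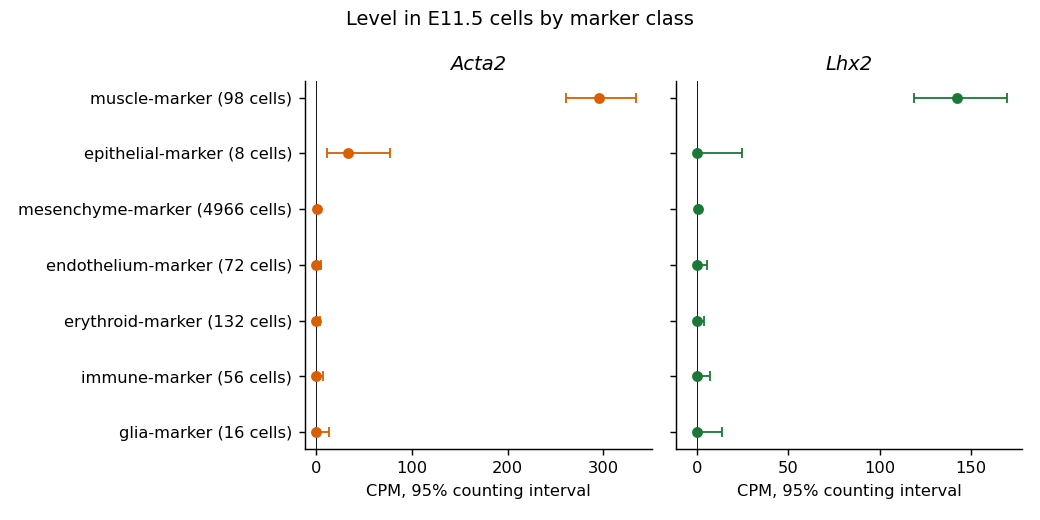
Level in CPM with 95% counting intervals of *Acta2* and *Lhx2* in E11.5 cells grouped by marker genes, with the number of cells of each class. Among the classes drawn, both are highest in the 98 muscle-marker cells. The 29 cells with pericyte and smooth muscle markers and the 1192 cells without a class are not drawn.

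Of 10 smooth muscle and non-muscle actomyosin genes, *Acta2*, *Myl9* and *Tagln* were at least 2 fold higher in the 98 cells, against 0.894% of all genes. *Myl9*, a regulatory myosin light chain, was at 61.2 CPM against 12.8 in the other cells, and *Tagln*, an actin-binding protein of smooth muscle, at 24.9 against 3.39. *Cnn1* and *Myh11*, which define mature smooth muscle, had no UMI in the 98 cells. The non-muscle myosin heavy chains were not higher, with log2 ratios of -0.29 (-0.71 to 0.12) for *Myh9* and -0.26 (-0.46 to -0.06) for *Myh10*.

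The 98 cells were divided by the later bHLH factors into 64 with neither *Myod1* nor *Myog*, 26 with *Myod1* but no *Myog*, and 8 with *Myog*. Median depth was 7019.5, 7844 and 8381 UMIs, so a cell without a *Myod1* UMI may still have made it. Sarcomere genes summed to 2436 CPM (2306 to 2572) in the 64 cells, 2191 (2014 to 2379) in the 26 and 6708 (6173 to 7278) in the 8. The log2 ratio of the *Myog*+ cells over the 64 was 1.46 (1.31 to 1.60). This is a description, since *Myod1* and 5 of the 25 sarcomere genes were rule genes and a cell without *Myod1* had to hold 3 of the other rule genes. Without the 5 genes the sums were 1408, 1250 and 3395 CPM, and the log2 ratio of the *Myog*+ cells over the 64 was 1.26 (1.07 to 1.46). Of 1888 genes compared between the *Myog*+ cells and the 64, 18 (0.953%) were at least 2 fold higher and 66 (3.50%) at least 2 fold lower, and the median log2 ratio was -0.01. Of the 25 sarcomere genes, 7 had enough counts to be among the 1888, and of these *Actc1*, *Ttn*, *Neb* and *Tpm2* were at least 2 fold higher and none lower. The other 18 were not counted, since 1 UMI in the 8 cells can pass 2 fold by itself.

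Among the 1888 genes compared, *Actc1* led at 1089 CPM in the *Myog*+ cells, 52.2 in the 64 and 23.1 in the 26. It was followed by *Rbm24*, *Ttn*, *Acta2*, *Neb*, *Ckb*, *Tpm2*, *Nexn*, *Prrx1* and *Cdkn1c*. *Rbm24*, a splicing factor of muscle, had a log2 ratio of 1.89 and *Ttn* one of 1.86. *Mylpf*, *Tnnc2* and *Mef2c* had too few counts to be among the 1888. *Mylpf* was at 487 CPM against 1.86 and *Tnnc2*, the fast troponin C, at 197 against 1.86. *Mef2c*, a partner of the bHLH factors, was at 290 CPM in the *Myog*+ cells, 26.1 in the 64 and 11.6 in the 26. The neural crest genes, *Prrx1* among them, summed to 1054 CPM in the *Myog*+ cells, of which 3 of 8 held 3 or more of them, and to 512 CPM in the 64, and their part in the other ratios was not tested. *Lhx2* went the other way, at 130, 204 and 34.8 CPM, and its log2 ratio of *Myog*+ cells over the 64 was -1.65 (-3.07 to -0.29). Its level in the *Myog*+ cells rested on 1 UMI in 1 cell and 2 UMIs in another. *Tcf21* was at 26.1, 34.7 and 0 CPM, and a count of 0 in the 8 cells allows up to 34.8 CPM, so a lower level of *Tcf21* was not detectable at this depth. Of the 10 lowest ratios, 5 belonged to globins (*Hbb-bh1*, *Hba-a2*, *Hbb-y*, *Hba-x* and *Hba-a1*), which mark red cells. A single cell with 3 or more erythroid markers held 609 of the 928 *Hbb-y* UMIs of the 64 cells, and without it the 64 cells were at 615 CPM of *Hbb-y*, against 301 in the *Myog*+ cells and 3870 in the other E11.5 cells. The other 5 were *Ddx42*, *Myof*, *Irf2bp1*, *Tshz2* and *Lrrn1*, each with 1 or 2 UMIs in the *Myog*+ cells.

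**Figure D4:**
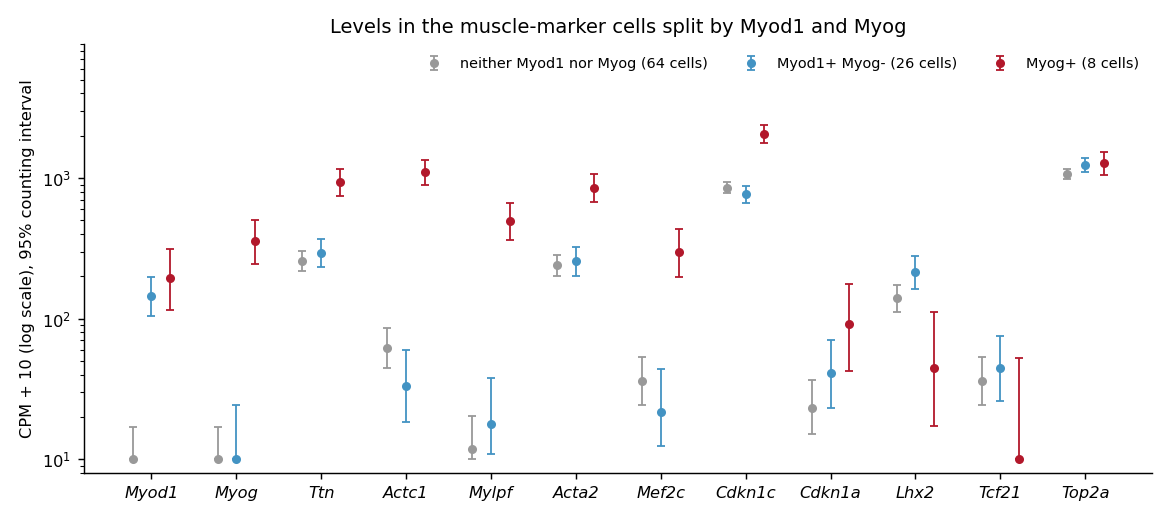
Level as CPM plus 10 (log scale) with 95% counting intervals of 12 genes in the muscle-marker cells with neither *Myod1* nor *Myog* (64), with *Myod1* but no *Myog* (26) and with *Myog* (8). *Actc1*, *Mylpf* and *Mef2c* are highest in the *Myog*+ cells, *Lhx2* is lowest there, from few UMIs, and *Top2a* is at a similar level in all 3.

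One cell carried much of this difference. The 8 *Myog*+ cells, ordered by sarcomere level, held 302, 54, 79, 36, 28, 26, 27 and 27 UMIs of the 25 genes at depths of 5790, 9308, 15032, 7454, 6021, 6903, 12390 and 23412 UMIs. The first cell was at 52159 CPM and the next at 5802, and the lowest 2 were below the 64 cells. That first cell also held 9 of the 30 *Myog* UMIs, 34 of the 42 *Mylpf* UMIs and 57 of the 94 *Actc1* UMIs, and all 9 *Myh3* UMIs and 5 of the 7 *Cdkn1a* UMIs of the group. Of *Tnnc2* it held 16 UMIs, and cell 3 in this order held 1. Without the first cell the sarcomere log2 ratio was 0.50 (0.30 to 0.68) in place of 1.46. The log2 ratio of *Actc1* was 2.92 without it, that of *Ttn* 0.42, of *Acta2* 1.36, of *Mylpf* 3.20 and of *Mef2c* 1.76. With the 5 rule genes left out as well it was 0.34 (0.08 to 0.60). These intervals cover the counting of UMIs and not the spread over the 7 cells, of which 2 were below the 64.

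**Figure D5:**
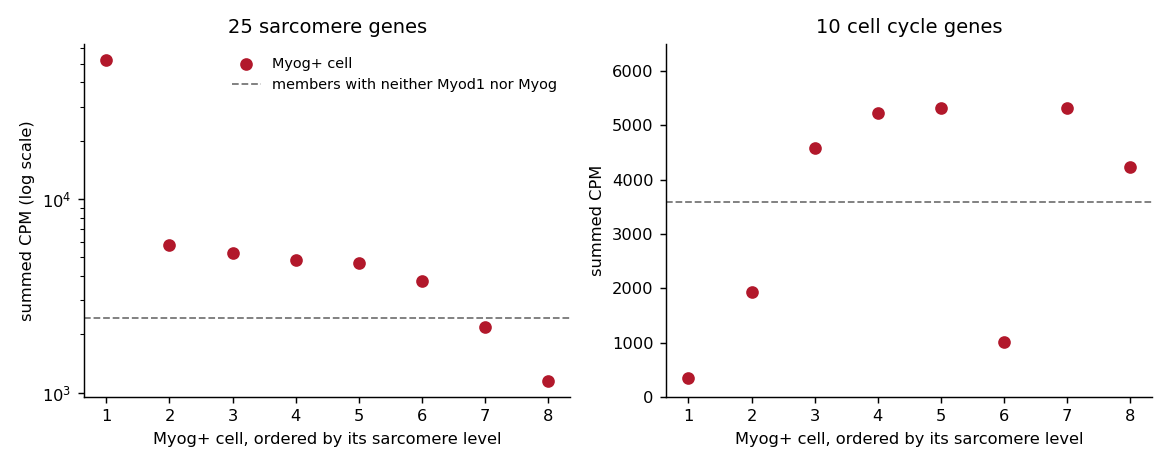
Summed CPM of 25 sarcomere genes (left, log scale) and of 10 cell cycle genes (right) in each of the 8 *Myog*+ cells, ordered by sarcomere level, with the level of the 64 muscle-marker cells with neither *Myod1* nor *Myog* as a dashed line. Cell 1 is highest on the left, at 52159 CPM, and lowest on the right, at 345 CPM.

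The 10 listed cell cycle genes summed to 3747 CPM in the 98 cells against 3894 in the other cells (log2 ratio -0.06, -0.11 to -0.01), and *Top2a*, a topoisomerase of dividing cells, was found in 87.8% of the muscle-marker cells. Between *Myog*+ cells and the 64 the log2 ratio was 0.10 (-0.08 to 0.26). It was 0.19 (0.02 to 0.36) without the *Myog*+ cell with most sarcomere UMIs and 0.15 (0.04 to 0.25) with the *Myod1*+ cells added, and it turned to -0.24 (-0.56 to 0.05) without the cells that held 3 mesenchyme markers. Cell by cell the *Myog*+ cells differed, since 3 of the 8 were at 345, 1934 and 1014 CPM and the other 5 between 4229 and 5327, with 3597 CPM in the 64 cells. The cell with most sarcomere UMIs was the one at 345 CPM. *Cdkn1c*, a cyclin-dependent kinase inhibitor, was at 2051 CPM in the *Myog*+ cells against 846 in the 64, with a log2 ratio of 1.27 (1.01 to 1.52), which was 0.87 without that cell. *Cdkn1a*, another inhibitor, was at 24.9 CPM in the 98 cells against 1.18 in the others. Of the cyclins, *Ccnd1* was lower in the 98 cells (log2 ratio -0.81, -1.03 to -0.61) and *Ccnd3* higher (0.85, 0.61 to 1.08).

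With 10 CPM added, most genes of the listed signalling pathways were less than 2 fold from the other cells. So were most of all genes with a UMI, of which 0.894% were at least 2 fold higher and 0.581% at least 2 fold lower. In the Notch pathway, *Hes1*, *Hes6* and *Hey1*, transcriptional repressors downstream of it or related to its targets, were at least 2 fold higher, which made 3 of 16 genes. *Hes1* was at 247 against 111 CPM and *Hes6* at 60.1 against 16.2, whereas *Notch1*, *Notch2* and *Notch3* had log2 ratios of 0.01, 0.09 and 0.20. In the Fgf pathway, *Spry2*, a feedback inhibitor, was at 41.9 against 15.8 CPM, and *Fgfr1* at 73.7 against 113. *Fgfr4*, a receptor known from myoblasts, had 2 UMIs. Of the Igf genes, *Igfbp5* and *Igfbp3* were at least 2 fold higher. In the Bmp and Tgf-beta list none of 10 was 2 fold apart, and *Mstn*, the inhibitor of muscle growth, had a log2 ratio of 0.98 (0.52 to 1.52) from 9 UMIs. Over mesenchyme-marker cells 1 gene of this list was at least 2 fold higher, with a log2 ratio of 1.01. In the Wnt and hedgehog list *Axin2*, a Wnt target, was lower, at 32.9 against 89.9 CPM.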

How the data were processed

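Per the labels and the study's methods, libraries were made with a 10x Genomics 3′ kit, and the authors aligned reads to mm10 with Cell Ranger 4.0.0. For every stage a single matrix of raw UMI counts was deposited, listing 32285 genes, with no map from barcodes to samples. Barcodes were kept from 700 detected genes upwards if mitochondrial UMIs made up 20% or less. Counts were summed over cells of a group and scaled to CPM. Log2 ratios had 10 CPM added, their intervals combined the exact Poisson limits of both levels, and genes needed a UMI in 10% of either group and 50 counts. Ratios at or beyond 2 fold were counted, with no test. Members and gene lists were chosen with earlier results of these data known. Named genes are the rule genes, listed genes and the 10 highest and lowest ratios of a comparison, except those said to be chosen after their values were seen, and a few of them are not reported here. Other classes were cells with at least 3 of their markers. Cells were clustered with the Leiden algorithm (leidenalg 0.10.2) after 20 principal components, at resolutions 0.4 and 1.0. Scrublet (scanpy 1.11.5) called 0 doublets at its own threshold, so none were removed, and leaving out the 5% highest scores was an alternative. Shares were also taken after thinning to 2000 UMIs. Gene positions are from GENCODE vM21 (another release than the authors used) and promoters from RefSeq. Python 3.11.15, numpy 2.4.6 and scipy 1.17.1 were used, and the ratio step was tested on simulated data.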

Additional observations from a re-analysis of the deposited data

How the results depend on the processing

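No paired analysis was possible because nothing in the matrices ties a barcode to 1 of the labelled samples, and with 1 matrix per stage the spread between embryos is unknown. No result whose interval lay to 1 side of 0 changed direction under the settings that gave a value, and the cell cycle ratio, whose interval spanned 0, changed sign under 1 of them. The share of muscle-marker cells was 1.14% with at least 200 genes and no mitochondrial limit, 1.84% with at least 2 rule genes, 1.03% with at least 4 and 0.635% after thinning to 2000 UMIs. The 148 genes at least 2 fold higher became 250 after thinning and 245 with 1 CPM added. The 101 lower genes became 249 and 207 under these settings, 159 without the 5% highest Scrublet scores, 175 with the mean of per-cell CPM and 223 without the cells that held 3 mesenchyme markers. The mesenchyme log2 ratio was -1.53 with at least 2 rule genes, -2.83 after thinning, -2.35 without the highest Scrublet scores, -2.38 with the mean of per-cell CPM, -1.91 against mesenchyme-marker cells and -4.03 without the cells that held 3 of the same genes. The cell cycle log2 ratio between *Myog*+ cells and those with neither factor was -0.24 without those cells. The sarcomere log2 ratio was 1.69 with at least 2 rule genes, 2.79 after thinning, 1.91 with the mean of per-cell CPM, 2.11 without cells holding 3 mesenchyme markers, 0.44 with *Myod1*+ cells added, 1.26 without the 5 rule genes, 0.50 without the *Myog*+ cell with most sarcomere UMIs and 0.34 without both. The thinned value of this ratio rested on 3 *Myog*+ cells and 24 with neither factor. After thinning no cell had 3 epithelial genes, so *Acta2* could not be compared there. The alternatives that leave out cells by mesenchyme markers or sarcomere UMIs, change the comparison cells, add *Myod1*+ cells, drop rule genes or take 2 epithelial genes were chosen after seeing the data. The cause was not tested for any of these shifts.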
